A study of Homo sapiens with 3 samples.

Results

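Androgen synthesis enzymes are the 10 genes CYP11A1, CYP17A1, HSD3B1, HSD3B2, HSD17B3, AKR1C3, SRD5A1, SRD5A2, SRD5A3 and STS, taken from 58302 counted genes by matching Ensembl identifiers to GENCODE symbols. All 10 symbols matched 1 identifier each. The libraries are 3 replicates of 1 group: total RNA from C4-2, a human prostate adenocarcinoma line derived from LNCaP, labelled as wild type and given no treatment in the labels. The series set out to compare adenocarcinoma with neuroendocrine lines and to deplete neuropilin-2 in neuroendocrine cells. Those other lines were not analysed here, and no values are compared between conditions. The labels do not tie a replicate to a separate culture, so p-values cover library-to-library spread, which may be technical. C4-2 is 1 line grown in culture, without the adrenal gland or testis that supply steroid precursors in a patient.

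Androgens are made from cholesterol. CYP11A1 cleaves the cholesterol side chain in the mitochondrion to give pregnenolone, CYP17A1 turns pregnenolone into dehydroepiandrosterone (DHEA), and the 3-beta-hydroxysteroid dehydrogenases HSD3B1 and HSD3B2 convert DHEA to androstenedione. HSD17B3 and AKR1C3 reduce androstenedione to testosterone, and the 5-alpha-reductases SRD5A1 and SRD5A2 reduce testosterone to dihydrotestosterone, the strongest natural ligand of the androgen receptor. STS, steroid sulfatase, frees DHEA from the sulfated form that circulates in blood. In prostate cancer under castration, tumour cells can make androgen from adrenal precursors with the later enzymes of this route.

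The libraries held 47513470 to 51200272 reads assigned to genes. Luminal prostate markers were abundant, with all 10 detected and their summed level at 4017 to 4086 TPM (transcript abundance: reads scaled by exon length and by the library's length-scaled total). Of 10 neuroendocrine markers, 6 were detected, and their sum was 5.99 to 7.76 TPM. Of 12 stromal and blood cell markers, 3 were detected, with a sum of 15.5 to 16.6 TPM. A gene counts as detected here with at least 10 reads in every library, as 71.8% of all protein-coding genes were. Among genes with 2 to 20 reads, 78.7% to 84.5% of counts per library were even numbers, against 52.7% to 54.7% among genes with 100 to 1000 reads. The main limits, intervals and tests below are therefore also given with 2 reads counted as 1 fragment.

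The promoters of the 3 steroid 5-alpha-reductase genes and of the 2 steroidogenic cytochrome P450 genes are shown because they cover CG-rich and CG-poor starts of both expressed and near-silent members. Each run is 5′ to 3′ on the gene's strand, covers 250 bases before to 50 after the start in RefSeq (GRCh38.p14), and has CG dinucleotides in capitals.
SRD5A1, chr5:6633190-6633489, plus strand: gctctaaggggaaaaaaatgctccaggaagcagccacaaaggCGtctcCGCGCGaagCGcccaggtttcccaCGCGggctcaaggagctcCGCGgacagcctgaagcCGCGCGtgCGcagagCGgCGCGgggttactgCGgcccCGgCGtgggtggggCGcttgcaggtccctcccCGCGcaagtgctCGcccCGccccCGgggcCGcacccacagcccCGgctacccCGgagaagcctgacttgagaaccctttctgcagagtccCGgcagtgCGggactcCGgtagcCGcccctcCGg
SRD5A3, chr4:55345992-55346291, plus strand: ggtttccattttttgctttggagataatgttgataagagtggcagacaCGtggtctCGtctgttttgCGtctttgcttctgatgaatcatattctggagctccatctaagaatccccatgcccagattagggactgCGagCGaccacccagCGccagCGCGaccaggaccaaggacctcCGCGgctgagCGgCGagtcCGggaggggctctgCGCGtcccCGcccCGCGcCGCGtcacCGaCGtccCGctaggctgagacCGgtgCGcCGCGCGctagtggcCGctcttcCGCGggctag
SRD5A2, chr2:31580889-31581188, minus strand: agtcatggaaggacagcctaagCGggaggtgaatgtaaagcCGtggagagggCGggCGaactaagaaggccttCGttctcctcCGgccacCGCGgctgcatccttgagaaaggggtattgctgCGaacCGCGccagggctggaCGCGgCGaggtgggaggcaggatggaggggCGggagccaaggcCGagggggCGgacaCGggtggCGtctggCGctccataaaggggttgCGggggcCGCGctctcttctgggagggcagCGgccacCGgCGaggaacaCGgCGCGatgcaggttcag
CYP11A1, chr15:74367597-74367896, minus strand: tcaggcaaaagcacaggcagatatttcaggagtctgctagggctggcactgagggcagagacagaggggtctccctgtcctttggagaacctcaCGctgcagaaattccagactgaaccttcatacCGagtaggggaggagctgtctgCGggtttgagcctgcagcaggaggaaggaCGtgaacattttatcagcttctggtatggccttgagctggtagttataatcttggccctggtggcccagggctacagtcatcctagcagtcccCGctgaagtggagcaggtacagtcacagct
CYP17A1, chr10:102837364-102837663, minus strand: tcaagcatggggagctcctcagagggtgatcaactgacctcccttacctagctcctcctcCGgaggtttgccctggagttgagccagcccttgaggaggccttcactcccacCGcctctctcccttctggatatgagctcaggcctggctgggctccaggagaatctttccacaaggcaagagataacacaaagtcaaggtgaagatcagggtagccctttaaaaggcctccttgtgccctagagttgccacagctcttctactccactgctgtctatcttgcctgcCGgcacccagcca

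The androgen synthesis enzymes fell into an expressed and a near-silent set of equal size. SRD5A1, SRD5A3, STS, CYP11A1 and HSD3B1 were detected and had a mean of at least 1 TPM. CYP17A1 and AKR1C3 had a few reads, and HSD3B2, HSD17B3 and SRD5A2 had 0 reads in every library. Among all 19708 protein-coding genes, 71.8% were detected by the same rule, 62.7% reached a mean of 1 TPM and 13.1% had 0 reads throughout. The median member lay at 0.800 TPM, and the median protein-coding gene at 5.43 TPM. In bulk RNA, fewer cells with a transcript and less of it per cell cannot be told apart.

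**Figure D1:**
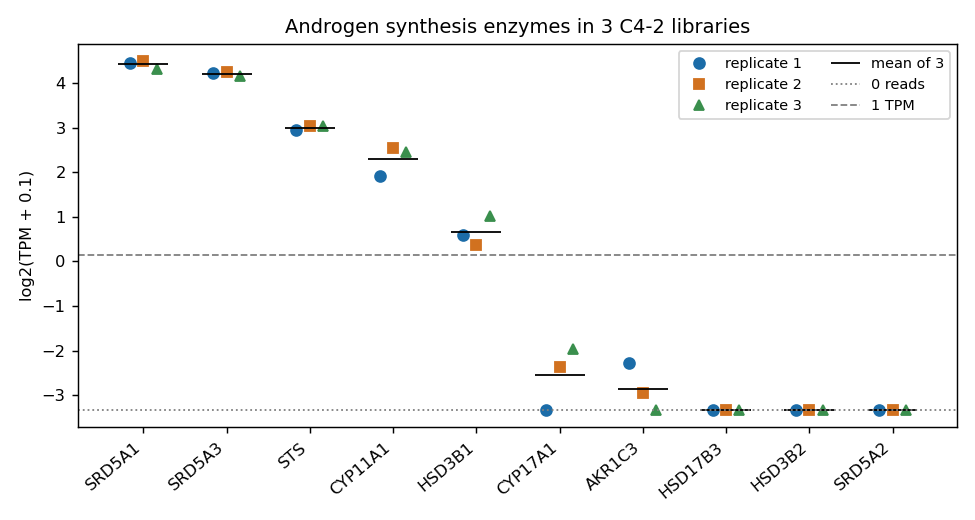
Level of each enzyme gene in each of 3 C4-2 libraries, as log2(TPM + 0.1), with the mean of the libraries as a bar; the dotted line marks 0 reads and the dashed line 1 TPM. SRD5A1, SRD5A3, STS, CYP11A1 and HSD3B1 lie above 1 TPM in every library, and the other members lie well below it.

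Among the 5-alpha-reductases, SRD5A1 was the highest of the 10 members. It had 2806, 2642 and 2550 reads in replicates 1, 2 and 3, or 21.7, 22.2 and 19.8 TPM, a mean of 21.2 ± 1.28 TPM (SD, n = 3) and stood at the 69.6th percentile among protein-coding genes. Replicate 3 was the lowest, and the highest library exceeded it 1.12-fold. The gene spans positions 6633343 to 6674386 of chromosome 5, plus strand, in GRCh38, with 7715 exon bases, none shared with another gene's exons.

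SRD5A3 came next. This enzyme was named for sequence likeness to the steroid 5-alpha-reductases. It is best known for a reduction step needed to make dolichol, the lipid carrier of N-linked glycans. It had 1382, 1280 and 1311 reads, or 18.6, 18.8 and 17.8 TPM, a mean of 18.4 ± 0.556 TPM (SD, n = 3). The 3 values lay within a 1.06-fold range, the narrowest of the detected members. Its ranges did not overlap those of SRD5A1, and the difference of SRD5A3 minus SRD5A1 was −0.20 ± 0.0440 log2 units, lower in 3 of 3 libraries (exact two-sided sign-flip permutation p = 0.25, the smallest that 3 libraries allow). Without scaling by exon length the difference was −1.01 log2 units, at 26.7 CPM (reads scaled to the library total) for SRD5A3 and 53.8 CPM for SRD5A1. SRD5A3 lies on chromosome 4 (55346109 to 55373096, plus strand), and 4.48% of its exon bases are shared with the antisense gene SRD5A3-AS1, which had 94, 91 and 92 reads. The files were counted without strand, so reads of this overlapping pair cannot be assigned to a strand.

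SRD5A2, the isozyme that dominates in normal prostate stroma and the genital tract, had 0 reads in replicates 1, 2 and 3. A limit of 3 reads corresponds to 0.0384, 0.0419 and 0.0387 TPM for its 4648 exon bases on chromosome 2 (31522480 to 31581067, minus strand). Against that limit per library, SRD5A1 was at least 512-fold higher and SRD5A3 at least 449-fold higher than SRD5A2, in 3 of 3 libraries each. The exact sign-flip p of each pair, on log2(TPM + 0.1) differences, was 0.25. With SRD5A2 at 0 reads these differences could not be negative, so the test gives no support for the order. With a limit of 6 reads, for 2 reads per fragment, SRD5A1 was at least 256-fold and SRD5A3 at least 224-fold higher. Every stretch of 50 bases in the SRD5A2 exons (100%) occurs once in the genome, so reads of that length from it would not have been dropped as repeated. Limits of this kind, and the intervals given for other members, cover counting error only, since reads carry no molecular identifiers.

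By transcript share, SRD5A1 made up 53.8%, 54.2% and 52.7% of the summed 5-alpha-reductase TPM in replicates 1, 2 and 3, a mean of 53.6 ± 0.763% (SD, n = 3), and SRD5A3 the remaining 46.4 ± 0.763%. Together these genes held 73.3 ± 2.55% of the summed TPM of all 10 members, which was 53.0 to 56.1 TPM per library. Because SRD5A3 is best known for its part in dolichol synthesis, transcript share is not a share of steroid reduction. The processed pseudogenes SRD5A1P1, SRD5A2P1 and SRD5A3P1 had 0 reads each. Of 50-base exon stretches, 93.6% were unique in the genome for SRD5A1 and 96.8% for SRD5A3.

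Genes that work beside SRD5A3 in dolichol synthesis and use were all expressed. All 10 listed partners were detected at 1 TPM or more, with a list median of 53.7 TPM. Among all protein-coding genes, 71.8% were detected and 62.7% reached a mean of 1 TPM. The dolichol-phosphate mannose synthase subunits led, with DPM3 at 228, DPM1 at 96.1 and DPM2 at 82.3 TPM. DHDDS and NUS1, the paired subunits of the cis-prenyltransferase that makes the polyprenol chain, lay at 18.1 and 45.7 TPM. Both genes were named after their values were seen.

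STS had 830, 810 and 874 reads, or 7.58, 8.07 and 8.03 TPM, a mean of 7.89 ± 0.269 TPM (SD, n = 3). The libraries differed by a factor of 1.06 at most. STS lies on chromosome X (7219456 to 7354810, plus strand) with 6521 exon bases, 99.8% of its 50-base exon stretches are unique, and none of its exon bases is shared with another gene. SULT2B1, a sulfotransferase of hydroxysteroids and cholesterol that acts against STS, averaged 16.8 TPM. STS minus SULT2B1 was −1.08 ± 0.0319 log2 units, lower in 3 of 3 libraries (exact sign-flip p = 0.25), a difference that turned to 0.12 without scaling by exon length and was −2.33 with the length of the canonical transcript. SULT2A1, the adrenal and liver enzyme that sulfates DHEA, had 0 reads, and STS was at least 82.3-fold higher against a limit of 3 reads per library, and at least 41.1-fold against 6 reads. Of 12 genes of sulfation and sulfatase maturation, 10 were detected, each at 1 TPM or more. The shares over all protein-coding genes were 71.8% detected and 62.7% at 1 TPM. The sulfate donor carrier gene SLC35B2 reached 194 TPM, SUMF2 80.4 and the phosphatase gene BPNT2 54.3. SUMF1, which encodes the formylglycine-generating enzyme that activates sulfatases, lay at 7.90 TPM and was named after its values were seen.

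CYP11A1, the first enzyme of the route, was detected in every library. It had 216, 307 and 312 reads, or 3.69, 5.71 and 5.35 TPM, a mean of 4.92 ± 1.08 TPM (SD, n = 3). Replicate 1 lay below the others, whose values were close to each other. CYP11A1 lies on chromosome 15 (74337759 to 74367740, minus strand), and 29.0% of its 3491 exon bases are shared with genes on the other strand. One of these, ENSG00000261821, covers 21.2% of the exon bases and had 0 reads, and the pseudogene PPIAP46 covers 7.73% and had 2, 14 and 4 reads. Under the recorded counting options, reads in shared bases go to neither gene, so the level may be understated.

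CYP17A1, which carries both the 17-alpha-hydroxylase and the 17,20-lyase step, had 0, 5 and 9 reads, or 0, 0.0942 and 0.156 TPM. Over the libraries that is 14 reads (95% exact Poisson interval 7.65 to 23.5), against 835 reads of CYP11A1 (779 to 894). With 2 reads per fragment the intervals widen to 5.63 to 28.8 reads for CYP17A1 and 757 to 919 for CYP11A1. CYP17A1 minus CYP11A1 was −4.85 ± 0.418 log2 units on the log2(TPM + 0.1) scale, lower in 3 of 3 libraries (exact sign-flip p = 0.25). CYP17A1 did not reach detection, and its gene lies on chromosome 10 (102830531 to 102837533, minus strand).

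Partners of these cytochromes were mostly detected. The route needs mitochondrial adrenodoxin and its reductase for CYP11A1, and the microsomal reductase POR with cytochrome b5 for CYP17A1. FDX1 averaged 27.4, FDXR 32.8, POR 61.8 and CYB5A 58.8 TPM; these genes were named after their values were seen. Of 19 genes of cholesterol delivery and electron transfer, 18 were detected and 17 reached 1 TPM. The shares over all protein-coding genes were 71.8% and 62.7%. The ferredoxin gene FDX2 missed detection, with 11, 5 and 12 reads in replicates 1, 2 and 3. Of its exon bases, 70.9% are shared with other genes, and it was named after its values were seen. The list was led by the outer mitochondrial membrane gene TSPO at 274, CYB5R3 at 71.1 and the lipoprotein receptor gene SCARB1 at 65.1 TPM. STAR, which brings cholesterol into the mitochondrion of adrenal and gonadal cells, had 36, 48 and 39 reads, or 0.672 ± 0.137 TPM (SD, n = 3).

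Markers of steroid-producing cells were mostly below detection. Of 12 markers, 3 were detected, and NR0B1, MC2R, INSL3 and FSHR had 0 reads. Among all protein-coding genes, 71.8% were detected and 13.1% had 0 reads throughout. NR5A1, the master regulator of steroidogenic cells, had 4, 0 and 14 reads. The detected markers were STAR, CYP21A2 with 17, 14 and 10 reads, and MRAP with 47, 58 and 34 reads, and 69.9% of the MRAP exon bases overlap another gene. LHCGR (4, 2 and 0 reads), CYP11B1 (4, 0 and 4), CYP11B2 (0, 2 and 0) and INHA (4, 6 and 2) stayed below detection. The summed marker level was 2.71 to 4.23 TPM.

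HSD3B1, the 3-beta-hydroxysteroid dehydrogenase of placenta and peripheral tissues, had 58, 45 and 79 reads, or 1.41, 1.20 and 1.94 TPM, a mean of 1.52 ± 0.381 TPM (SD, n = 3). Replicate 3 was the highest, 1.62-fold above replicate 2. HSD3B2, the adrenal and gonadal isozyme, had 0 reads in each library. HSD3B1 was at least 14.3-fold higher against a limit of 3 reads per library, and at least 7.17-fold against 6 reads. These bounds held in 3 of 3 libraries. The exact sign-flip p of the pair was 0.25. With HSD3B2 at 0 reads the differences between HSD3B1 and HSD3B2 could not be negative, so the test gives no support for the order. These genes lie on chromosome 1 in a cluster with pseudogenes, HSD3B1 at 119507198 to 119515054 and HSD3B2 at 119414931 to 119423035, both on the plus strand. In that cluster HSD3BP5 had 15, 19 and 9 reads, HSD3BP2 15, 7 and 0, HSD3BP3 0, 2 and 0, and HSD3BP1 and HSD3BP4 none. Of 50-base exon stretches, 92.9% were unique for HSD3B1 and 94.5% for HSD3B2, and both exceeded 99% at 100 bases (99.8% each). The read length is not stated in the labels or file headers.

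Neither member listed for the step to testosterone, AKR1C3 or HSD17B3, was detected. AKR1C3, also called HSD17B5 and the main peripheral enzyme of this step in many castration-resistant tumours, had 8, 2 and 0 reads, or 0.105, 0.0287 and 0 TPM. HSD17B3, the testicular enzyme, had 0 reads, with 3 reads corresponding to 0.0869 to 0.0947 TPM. AKR1C3 minus HSD17B3 was 0.47 ± 0.526 log2 units, above 0 in 2 of 3 libraries (exact sign-flip p = 0.5). Against HSD17B3 at 0 reads the difference could not be negative, and the test could not pass 0.05, so the order of these genes was not settled. AKR1C3 lies on chromosome 10 (5035354 to 5107686, plus strand) and HSD17B3 on chromosome 9 (96235306 to 96302152, minus strand). Of 50-base exon stretches of AKR1C3, 95.0% were unique.

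The neighbours of AKR1C3 were as low. AKR1C1, which inactivates progesterone, had 0, 2 and 0 reads, AKR1C2, which inactivates dihydrotestosterone, had 2 reads in each library, and AKR1C4, a liver enzyme, had none. AKR1C3 minus AKR1C1 was 0.40 ± 0.557 (exact sign-flip p = 0.5) and AKR1C3 minus AKR1C2 0.22 ± 0.529 log2 units (exact sign-flip p = 0.75). Only 64.2% of the AKR1C1 and 58.4% of the AKR1C2 stretches of 50 bases were unique, so reads of these near-identical genes could have been dropped. Over the 10 gene pairs tested, the smallest Benjamini-Hochberg adjusted p was 0.357, and no pair could pass 0.05 with 3 libraries.

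Among 19 other 17-beta and 3-alpha oxidoreductase genes, 12 were detected and 11 reached 1 TPM, where 71.8% of all protein-coding genes were detected and 62.7% reached 1 TPM. HSD17B2, HSD17B13, AKR1D1 and DHRS9, with AKR1C1, AKR1C2 and AKR1C4, were not detected, and the first 4 were named after their values were seen. AKR1D1 missed detection in replicate 1 alone, with 8, 42 and 40 reads. HSD17B10, a mitochondrial enzyme of branched amino acid and steroid oxidation, averaged 373 TPM, the carbonyl reductase gene CBR1 73.2 and HSD17B8 73.1. HSD17B1 and HSD17B12, also detected, lay at 9.23 and 5.74 TPM and were named after their values were seen. Of their exon bases, 34.8% and 21.6% are shared with other genes. Of 11 genes of androgen inactivation, 6 were detected, each at 1 TPM or more. UGDH, which makes the glucuronic acid donor, lay at 44.2 TPM, UGT2B15, which glucuronidates dihydrotestosterone, at 3.79, and the hydroxylase gene CYP1B1 at 3.52 TPM. UGT2B15 has close paralogs, so its count is uncertain.

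Of 6 genes of corticoid and oestrogen synthesis, 2 were detected, where 71.8% of all protein-coding genes were. HSD11B2, which inactivates cortisol, stood at 48.8 TPM, while CYP21A2 and CYP11B1 lay at 0.289 and 0.0379 TPM. CYP21A2 has a near-identical pseudogene, so its reads are uncertain. Of 13 carriers that move steroids or their conjugates, 8 were detected and 6 reached 1 TPM, beside 71.8% and 62.7% of all protein-coding genes. ABCC4 averaged 185, ABCC1 128 and SLCO4A1 40.4 TPM, and SLCO1B1 and SLCO1B3 had 0 reads.

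**Figure D2:**
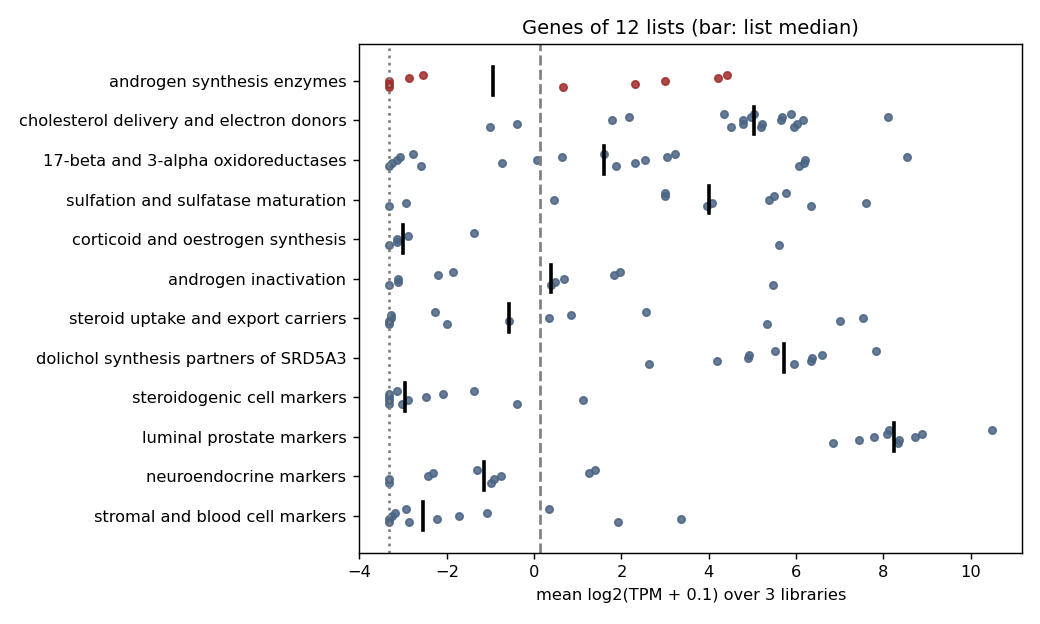
Mean log2(TPM + 0.1) over 3 C4-2 libraries of each gene in 12 lists, 1 row a list, with a black bar at the list median; the dotted line marks 0 reads and the dashed line 1 TPM. The enzymes (red, top row) span both sides of 1 TPM, while all 10 dolichol partners and all 10 luminal markers lie above it.

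In order of mean level the members ran SRD5A1, SRD5A3, STS, CYP11A1, HSD3B1, CYP17A1 and AKR1C3, with HSD3B2, HSD17B3 and SRD5A2 at 0. Neighbours from SRD5A1 down to CYP17A1 had ranges that did not overlap between libraries. CYP17A1 and AKR1C3 overlapped, as did AKR1C3 and the genes at 0. Among members with reads, the largest step lay between HSD3B1 and CYP17A1, whose mean TPM differed 18.1-fold. The means of STS and CYP11A1, at 7.89 and 4.92 TPM, changed places when TPM was computed with the length of the canonical transcript. They were then 5.15 ± 0.182 and 6.19 ± 1.37 TPM (SD, n = 3), and the order within each library was not compared. In the same units SRD5A1 and SRD5A3 lay at 15.4 and 13.3 TPM. The canonical transcript of STS, at 6622 bases, is longer than the 6521 exon bases counted for it.

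**Figure D3:**
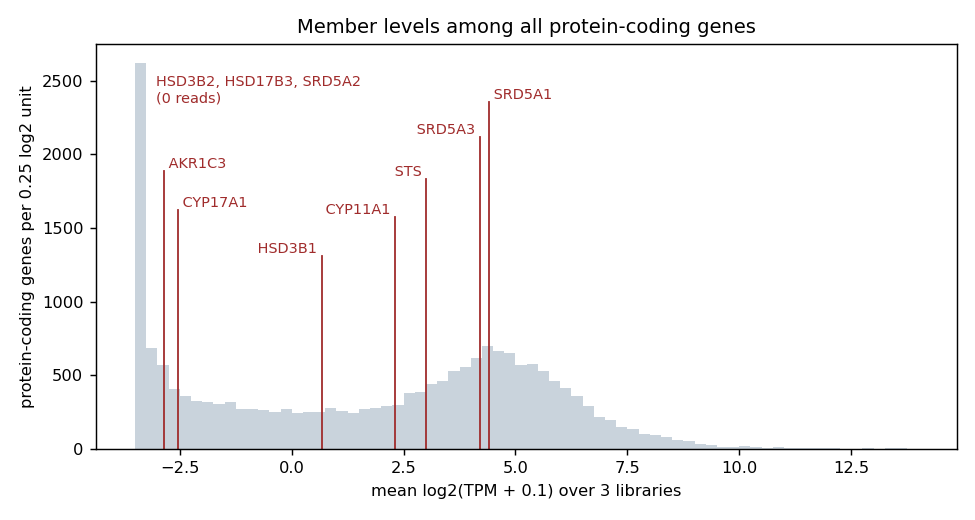
Number of protein-coding genes per 0.25 log2 unit of mean log2(TPM + 0.1) over 3 C4-2 libraries, with the enzymes marked in red. SRD5A1 and SRD5A3 stand near the peak of expressed genes, at the 69.6th and 66.7th percentile, STS and CYP11A1 at the 54.1st and 49.2nd, and HSD3B1 at the 40.1st.

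Variation between libraries was tested with a chi-square test of each gene's counts against normalised library sizes, adjusted over 21039 detected genes. Of the 5 detected members, 2 varied beyond counting noise, CYP11A1 (adjusted p = 1.34e-05) and HSD3B1 (adjusted p = 0.0262, chi-square test). The background is high, since 46.1% of all detected genes were called by this rule. With the statistic divided by 2, for 2 reads per fragment, 17.6% of genes were called, CYP11A1 was still called (adjusted p = 0.0111) and HSD3B1 was not (adjusted p = 0.258). In CYP11A1, replicate 1 held 0.752 of the reads expected from an even spread, and replicates 2 and 3 held 1.14 and 1.12. Without replicate 1 the CYP11A1 counts no longer varied beyond noise (adjusted p = 0.911).

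For SRD5A1 the adjusted p was 0.0553, with 0.957 of the expected reads in replicate 3, with total counts in place of normalised library sizes it was 0.0126, and without replicate 1 it was 0.0493. STS and SRD5A3 had adjusted p-values of 0.310 and 0.889. HSD3B1 held 0.927, 0.765 and 1.30 of the expected reads, and the interval of replicate 3 began at 1.03, or at 0.929 with 2 reads per fragment. Its call was lost without replicate 2 (adjusted p = 0.137) and without replicate 3 (adjusted p = 0.523).

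**Figure D4:**
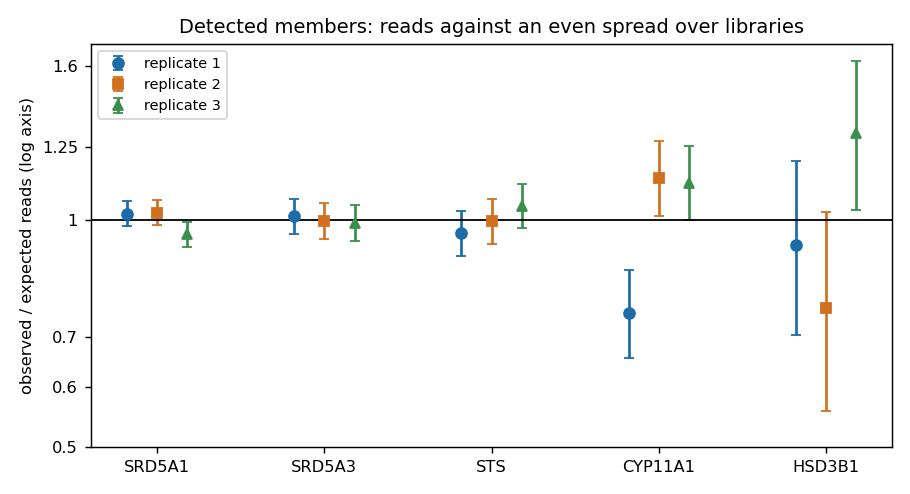
Observed over expected reads in each of 3 C4-2 libraries for the 5 detected enzymes, on a log axis, with 95% exact Poisson intervals that count each read as independent; 1 means the share expected from library size. Replicate 1 of CYP11A1 stands at 0.752 with its interval below 1, while SRD5A3 and STS stay close to 1 in every library.

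A trait that the choice of genes did not use is the promoter. In 300-base RefSeq windows, SRD5A1 had 33 CG dinucleotides, SRD5A3 31 and SRD5A2 29, against a median of 22 over 15287 protein-coding genes. The SRD5A2 window was nearly as rich in CG as those of its expressed relatives, while the gene had 0 reads. CYP11A1 had 5, CYP17A1 and HSD17B3 3 each, HSD3B1 and HSD3B2 1 each, and both AKR1C3 windows 0. STS has 5 listed starts, with 6, 23, 5, 1 and 3 CG dinucleotides. The windows with 6 and 23 lie between positions 7147040 and 7147761 of chromosome X. The counted gene begins only at position 7219456, so any exon before that was not counted.

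Over protein-coding genes with a window, 89.2% of those with at least 15 CG dinucleotides were detected, 58.2% of those with 5 to 14 and 31.4% of those with 4 or fewer. By first listed start, HSD3B1 was the detected member in the class of 4 or fewer, and SRD5A2 the undetected member in the class of at least 15. The core motif AAGGTCA that NR5A1 binds, searched on both strands, was present in the windows of HSD3B1 and in 1 of 5 windows of STS, and in 3.92% of all 35116 promoter windows. TATAAA was found in the windows of HSD17B3, in 1 of 2 of AKR1C3 and in 1 of 5 of STS, and in 11.5% of all windows. GGGCGG, the GC box, was in the windows of SRD5A1, SRD5A2 and SRD5A3 and in 1 of 5 of STS, and in 45.0% of all windows. Over protein-coding genes, by first listed start, AAGGTCA was in 3.13%, TATAAA in 9.60% and GGGCGG in 59.3%. A match is a description of the letters and not a bound site. Only these exact strings were searched, so variants that differ by a letter were not counted. A window without a match may still hold a site.

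**Figure D5:**
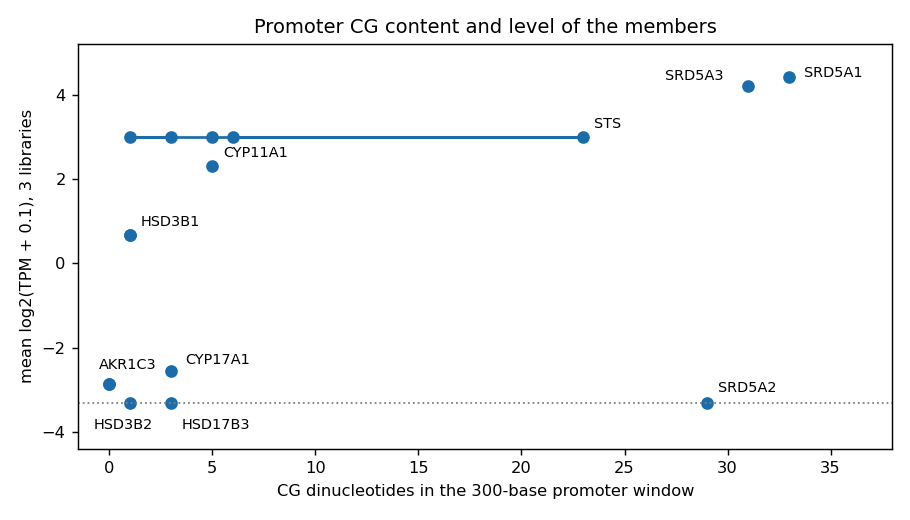
Number of CG dinucleotides in the 300-base promoter window (250 bases before to 50 after the start) against mean log2(TPM + 0.1) over 3 C4-2 libraries, 1 point per window, windows of 1 gene joined by a line. SRD5A1 and SRD5A3 combine CG-rich windows with the highest levels, and SRD5A2 has a CG-rich window and 0 reads. CYP11A1 and HSD3B1 are detected and have CG-poor windows. Gene counts do not show which start was used, and the STS windows with 6 and 23 CG dinucleotides lie before the counted gene.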

How the data were processed

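Total RNA of 3 C4-2 libraries was depleted of ribosomal RNA and made into strand-specific libraries from 770 ng of RNA, per the labels' protocols. The deposited values are raw read counts per gene from featureCounts 1.6.3 on GRCh38 with Ensembl release 90, per the file headers, which record no option for strand or read pairs. The exon length column of the deposited files was used as it stands. STAR 2.7.0f, Trim Galore and DESeq2 1.26.0 are named in the submitters' processing notes.

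TPM was computed over all genes, and log2 values as log2(TPM + 0.1). Names came from GENCODE release 44 (57532 of 58302 identifiers matched). Detection needed 10 reads in every library. edgeR 4.0.16 gave TMM factors for the chi-square test, adjusted by Benjamini-Hochberg at 0.05; no contrast exists for its quasi-likelihood test. In simulated counts for 21039 genes, the variation test recovered 77.0%, 94.0% and 100% of 200 genes changed 1.25-, 1.5- and 2-fold. It called 0.0384%, 0.0096% and 0.0672% of the genes left unchanged there, against 46.1% of detected genes in the libraries. Whether recovery holds at the spread of these libraries was not tested. Exon uniqueness was checked on hg38. R 4.3.3, DESeq2 1.42.0 (size factors), Python 3.11.15, numpy 2.4.6, pandas 2.3.3, scipy 1.17.1 and matplotlib 3.10.9 were used.

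The members, 12 lists, 10 pairs and tests were chosen with earlier results of these data known. Named were all members, the 3 highest genes of each pathway list, genes in a pair, AKR1C genes and steroidogenic markers with reads; cell type marker lists are given as sums. Markers and carriers without reads, pseudogenes and overlapping genes were named after their values were seen, and exon uniqueness and promoter counts were added after the data were seen. No search for genes of like pattern was made, since 3 libraries of 1 group hold none across conditions.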

Additional observations from a re-analysis of the deposited data

How the results depend on the processing

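The count of 5 detected members and of 5 members at 1 TPM or more was 5 under all alternatives run: other detection limits (1 or 20 reads, 0.5 CPM), TPM over protein-coding genes, canonical transcript length and each library left out. The SRD5A1 share of 5-alpha-reductase TPM stayed within 1 SD with canonical transcript length and with each library left out. TPM over protein-coding genes cannot change this share, and the share was not computed without length scaling. The median member level, −0.94 log2 units, was 0.72 with a pseudocount of 1, −1.79 with 0.01 and 2.998 over detected members only, which by construction drops the low genes. Members varying between libraries numbered 2, but 4 with no filter on low counts, which adds CYP17A1 and AKR1C3, 3 with total counts, which adds SRD5A1, 1 with the statistic divided by 2, and 1 to 2 with each library left out; without replicate 1 these were HSD3B1 and SRD5A1, and without replicate 2 or 3 CYP11A1. The 10 pairs kept their direction under the scaling, pseudocount and left-out-library alternatives, with 2 exceptions. These were STS minus SULT2B1 in CPM and AKR1C3 minus AKR1C2 without replicate 1. STS minus SULT2B1 was −1.08 and turned to 0.12 in CPM with no length scaling, which favours the longer gene, and −2.33 with canonical transcript length. SRD5A3 minus SRD5A1 was −0.20, and −1.01 in CPM. CYP17A1 minus CYP11A1 was −4.85, and −2.43 and −6.44 with pseudocounts of 1 and 0.01. The Poisson intervals with 2 reads per fragment were chosen after seeing the data. AKR1C3 minus AKR1C2 was 0.22, and −0.073 to 0.45 with each library left out, with 0 to 8 reads behind each value. No analysis of samples paired between groups was possible because all libraries belong to 1 group. The gene pairs were compared within each library. Depth limits the members at 0 reads: 3 reads equal 0.0586 to 0.0631 CPM.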
